A study of Mus musculus with 10 samples.

Results

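The adult hemoglobin chain genes and 3 further red cell genes were followed in RNA-seq counts of marrow cells depleted of mature lineages, from 5 female and 5 male replicates. The genes were chosen by name and by their levels in an earlier analysis of the same counts, where hemoglobin genes were lower in females than in males: the alpha chain genes Hba-a1 and Hba-a2, those of the beta chain, Hbb-bs and Hbb-bt, the minor chain gene Hbq1b, and Alas2 and Bpgm, which make heme and the small molecule that tunes oxygen release. Of 8 genes listed, 7 were found among the 25178 genes of the count table and all 7 passed the filter on low counts. The remaining gene was not analysed here. Because these levels chose them, levels, ratios and fold changes between the sexes are given as descriptions, without a test. Female and male C57/BL6 mice, for which the labels name no treatment and no engineered allele, gave marrow flushed from 1 hindlimb. Lineage-positive cells were removed on magnetic beads, and total RNA of what was left, labelled as hematopoietic stem and progenitor cells, was sequenced in bulk. No label gives the age of the mice, names the lineage antibodies, or says that each replicate came from a separate mouse, so a spread between replicates may be partly technical.

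Hemoglobin is a tetramer of alpha-type and beta-type chains, each holding a heme group that binds oxygen. Erythroblasts, the nucleated precursors of red cells, fill with globin mRNA late in their maturation, and reticulocytes, the young cells that have shed their nucleus, still carry it. Stem cells and early progenitors make little of it. In bulk RNA, fewer late erythroid cells and less globin mRNA per cell cannot be told apart.

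Library totals ran from 20754101 to 24366241 counts in females and from 21136932 to 24759687 in males. Xist, expressed from the inactive X chromosome, was at 34.4 to 50.8 CPM (counts scaled to a common library total) in females and at most 0.208 CPM in males, as labelled. The progenitor receptor gene Kit was present in every library, at 234 to 341 CPM in females and 151 to 301 CPM in males. Male replicates 1 and 2 scored 35.3 and 36.7 on a first principal component where the other 8 libraries lay between -19.8 and 6.04, so results that rest on them are given with and without them.

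The sequences next to the start sites are shown as a description. The alpha and beta genes lie on different chromosomes and ran together from replicate to replicate. Whether promoter sequence has a part in that was not tested. Each line gives the 120 bases before the RefSeq start site on GRCm38.p6, read in the direction of the gene. Capitals mark 4 runs of letters on either strand. The letters CCAAT are a common promoter element near the start sites of many genes. Kruppel-like factors such as Klf1 are known to bind CACCC and related letters. The erythroid factor Gata1 and its family are known to bind the letters GATAA. The general transcription machinery is known to use ATATAA and similar letters close to a start site. No match overlapped another.
Hba-a1, chr11:32283552-32283671, plus strand: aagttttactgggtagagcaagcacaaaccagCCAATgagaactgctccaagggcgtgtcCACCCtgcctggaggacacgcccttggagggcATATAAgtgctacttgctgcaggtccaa
Hba-a2, chr11:32296372-32296491, plus strand: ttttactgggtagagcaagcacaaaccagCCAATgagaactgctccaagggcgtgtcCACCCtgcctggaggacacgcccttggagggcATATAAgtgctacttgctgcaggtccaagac
Hbb-bs, chr7:103827929-103828048, minus strand: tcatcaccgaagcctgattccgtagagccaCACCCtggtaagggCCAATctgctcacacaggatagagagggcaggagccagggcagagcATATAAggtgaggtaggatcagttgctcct
Hbb-bt, chr7:103813924-103814043, minus strand: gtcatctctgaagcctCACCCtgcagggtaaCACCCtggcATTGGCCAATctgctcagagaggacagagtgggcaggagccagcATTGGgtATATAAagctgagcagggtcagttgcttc
Hbq1b, chr11:32286844-32286963, plus strand: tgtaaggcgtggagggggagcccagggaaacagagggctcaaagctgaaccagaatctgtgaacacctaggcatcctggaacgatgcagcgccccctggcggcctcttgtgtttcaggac
Alas2, chrX:150547297-150547416, plus strand: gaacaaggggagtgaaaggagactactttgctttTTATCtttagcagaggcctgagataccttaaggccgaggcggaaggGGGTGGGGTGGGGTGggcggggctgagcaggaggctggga
Bpgm, chr6:34476236-34476355, plus strand: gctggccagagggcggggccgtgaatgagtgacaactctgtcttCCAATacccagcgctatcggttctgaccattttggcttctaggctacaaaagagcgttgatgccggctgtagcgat
All 4 adult chain genes held all of these but GATAA, which 94 of 32851 RefSeq promoter windows of this length did (0.286%). In both alpha genes CCAAT lay farther from the start than CACCC, 88 against 60 bases upstream in Hba-a1. In Hbb-bs the order was the other way round, with CACCC at 90 and CCAAT at 76 bases upstream. The ATATAA letters began 28 to 31 bases upstream in all 4. Singly, CCAAT was found in 21.3% of the windows and CACCC in 31.7%. The shares were 10.5% for GATAA and 4.47% for ATATAA. Alas2 held GATAA and CACCC, Bpgm held CCAAT, and Hbq1b held no match in this window. A match is a run of letters and not a measured binding site.

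The copies within each pair are near-identical, which limits what can be said of single copies. The coding sequences of Hba-a1 and Hba-a2 in GENCODE vM21 differ at 1 of 426 bases (99.8% identity), and those of Hbb-bs and Hbb-bt at 1 of 441 (99.8%). The stretch of the beta coding sequence around that base is shown with the difference in capitals, as bases 397 to 436 of each coding sequence.
Hbb-bs, chr7:103826673-103826712, minus strand: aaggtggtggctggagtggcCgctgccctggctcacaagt
Hbb-bt, chr7:103812664-103812703, minus strand: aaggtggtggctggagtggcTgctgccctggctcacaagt
Of all 100-base windows of the Hba-a2 transcript 74.5% also occur in that of Hba-a1, and of the windows of Hbb-bs 62.6% occur in Hbb-bt. No source used here says how the deposited counting treated reads that match both copies. The sums per chain do not depend on how such reads were split between the copies. If the reads were dropped, the sums and the alpha to beta ratios would be affected too. The promoters of the pairs differ in how alike they are: those of Hba-a1 and Hba-a2 matched at all 117 bases that overlap (100%), those of Hbb-bs and Hbb-bt at 88 of 119 (73.9%).

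The alpha chain transcripts were lower in females than in males. Hba-a1 (chr11:32283511-32284465, 3 exons) was at 2016, 2367, 2601, 1564 and 1243 CPM in female replicates 1 to 5, and at 13821, 7831, 3588, 7192 and 3231 CPM in male replicates 1 to 5. The highest female lay below the lowest male. Its log2 fold change, female over male, was -1.86 (SE 0.37) in the edgeR fit across all genes. Hba-a2 (chr11:32296489-32297298), the copy downstream on the same strand, was at 1633, 1949, 2256, 1271 and 1059 CPM in females, against 13165, 6942, 3106, 6556 and 2735 CPM in males. Again the sexes did not overlap, and male replicate 1 was the highest of the 10 libraries. The log2 fold change of Hba-a2 was -1.99 (SE 0.39).

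The beta chain transcripts were also lower in females than in males. Hbb-bs, which the deposited table lists under the symbol Hbb-b1 of another beta haplotype, lies at chr7:103826534-103828096. It was at 1035, 1365, 1643, 957 and 709 CPM in females, against 11298, 6830, 2294, 4726 and 1967 CPM in males. All males stood above every female, although male replicate 1 was far above male replicate 5. Its log2 fold change was -2.25 (SE 0.44), the largest value in size of the 7 genes, within its SE of those of the other 3 adult chain genes. Hbb-bt (chr7:103812524-103813996) was at 780, 967, 1094, 703 and 501 CPM in females, against 7387, 4590, 1557, 2929 and 1379 CPM in males. The order of the replicates was that of Hbb-bs in both sexes, with a log2 fold change of -2.14 (SE 0.43).

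The minor chain and the enzyme genes were scarcer. Hbq1b (chr11:32286965-32287784), a theta-type chain gene of the alpha cluster with no settled function, had 31 to 71 counts per female and 57 to 137 counts per male. It was at 1.99, 2.93, 2.26, 1.61 and 1.21 CPM in females, against 5.75, 4.15, 2.43, 3.89 and 2.91 CPM in males, and female replicate 2 lay above males 3 and 5. The log2 fold change was -0.93 (SE 0.28), the smallest in size of the 7. Alas2 (chrX:150547375-150570638), the first enzyme of heme synthesis in erythroid cells, was at 35.9, 50.6, 55.2, 30.1 and 23.9 CPM in females, against 299.9, 107, 67.9, 166 and 68.7 CPM in males. Its sexes did not overlap (log2 fold change -1.86, SE 0.40), although female replicate 3 and male replicate 3 were close. Bpgm (chr6:34476207-34505613) encodes bisphosphoglycerate mutase, whose product lowers the oxygen affinity of hemoglobin. It was at 30.4, 35.2, 37.0, 30.2 and 27.4 CPM in females, against 150.7, 87.8, 41.3, 85.5 and 38.5 CPM in males. The gap between the highest female and the lowest male was 37.0 against 38.5 CPM, the narrowest of the 6 genes whose sexes did not overlap, and the log2 fold change was -1.33 (SE 0.32).

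**Figure D1:**
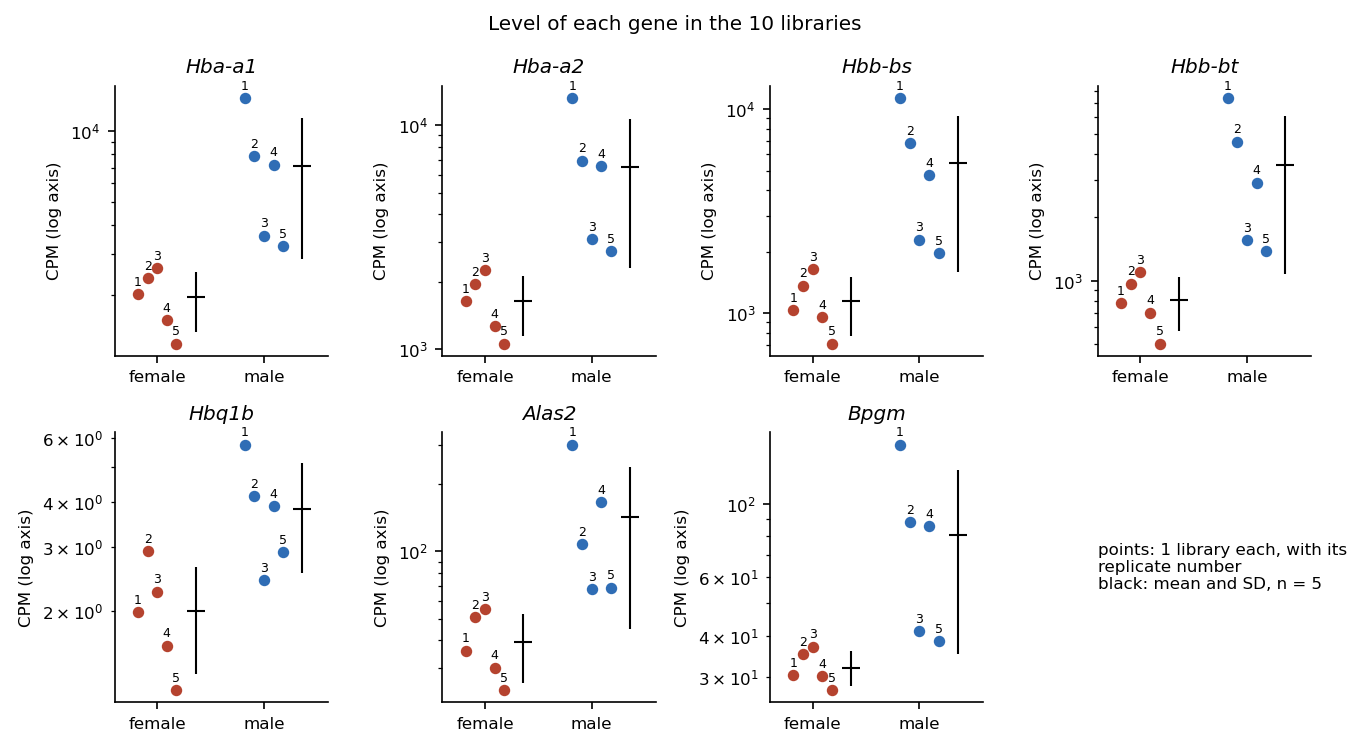
CPM of each gene on a log axis, females left of males. Each point is 1 library with its replicate number, and black marks give the mean and SD over 5 libraries. Every female lies below every male except for Hbq1b, and male replicate 1 is highest in all 7 genes.

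Every female lay below every male in 6 of the 7 genes, against 127 of the 14674 genes tested (0.865%). The quasi-likelihood test of edgeR called 0 of the 7 at a Benjamini-Hochberg adjusted p under 0.05, against 8 genes of either direction among 14674 (0.0545%), 5 of them lower in females (0.0341%). The Wald test of DESeq2 called 6 of the 7, all but Hbq1b, against 21 genes called lower in females among 17827 (0.118%). Since the genes were listed for this difference, nothing is read from these counts. Male replicates 1 and 2 were then left out. Leaving out libraries cannot bring an overlap into those 6 genes, so only the fold changes are given. The log2 fold changes were then -1.40 (SE 0.38) for Hbb-bs, -1.28 (SE 0.34) for Hbb-bt, -1.26 (SE 0.35) for Hba-a1 and -1.34 (SE 0.38) for Hba-a2. Differences in fold change between alpha and beta genes were not tested. Those of Alas2, Bpgm and Hbq1b were -1.37 (SE 0.42), -0.79 (SE 0.26) and -0.63 (SE 0.27). Spread was wider among males: the coefficient of variation of the 4 adult chain genes ran from 28.5% to 31.99% in females and from 59.9% to 70.6% in males, while that of Bpgm was 12.3% in females and 56.4% in males.

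As a share of all counts, the 4 adult chain genes together took 0.543%, 0.678%, 0.779%, 0.469% and 0.368% in female replicates 1 to 5, and 4.40%, 2.32%, 1.06%, 2.17% and 0.939% in male replicates 1 to 5. Males 3 and 5 were nearer to the females than to male 1. Without males 1 and 2 the male mean was 1.39% ± 0.678 (SD, n = 3), against 2.18% ± 1.39 (SD, n = 5) with them. Even in these lineage-depleted cells Hba-a1 ranked 6th and Hbb-bt 35th of the 14674 genes by mean CPM over all 10 libraries. Males weigh more in that mean, with Hba-a1 at 1958 ± 559 CPM in females against 7133 ± 4272 CPM in males. Ranks within a sex were not taken. Corrected for transcript length, Hba-a2 came first at 2948 ± 880 CPM per kilobase in females, against 11735 ± 7568 in males (SD, n = 5 per sex). Hba-a1 followed at 2801 ± 800 and 10204 ± 6112, then Hbb-bs at 1818 ± 582 and 8635 ± 6101, and Hbb-bt at 1151 ± 328 and 5076 ± 3547, in females and males in turn. Neighbours among these 4 differed by less than the larger of their SDs, apart from Hba-a1 over Hbb-bs and Hbb-bs over Hbb-bt in females, yet within each of the 10 libraries the order of the 4 was the same. Hba-a2 exceeded Hba-a1 only by 1.02 to 1.20 times within a library, and this order rests on the annotated length of each copy. Alas2 was far below, at 19.2 ± 6.55 and 69.7 ± 47.6 CPM per kilobase in females and males. Bpgm stood at 14.4 ± 1.78 and 36.4 ± 20.5, below Alas2 in 9 of 10 libraries, and Hbq1b was last at 3.56 ± 1.16 and 6.81 ± 2.28.

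Alpha counts exceeded beta counts in every library. The count of both alpha genes over that of both beta genes was 2.01, 1.85, 1.78, 1.71 and 1.90 in female replicates 1 to 5, and 1.44, 1.29, 1.74, 1.80 and 1.78 in male replicates 1 to 5. The low values were those of male replicates 1 and 2 alone, the libraries that also stood apart on the first principal component. The other 8 libraries lay between 1.71 and 2.01. The mean was 1.85 ± 0.116 in females, against 1.61 ± 0.228 in males (SD, n = 5 per sex), and 1.77 ± 0.0301 (SD, n = 3) in males 3 to 5. Male replicate 4 had nearly the hemoglobin share of male replicate 2, 2.17% against 2.32%, with a ratio of 1.80 against 1.29. Per kilobase the ratio was 1.95 ± 0.123 in females and 1.70 ± 0.239 in males. Within the pairs, Hba-a1 over Hba-a2 was 1.20 ± 0.0362 in females and 1.12 ± 0.0513 in males, lowest in male replicate 1 at 1.05. Hbb-bs over Hbb-bt was 1.40 ± 0.0661 in females and 1.51 ± 0.0705 in males, and the sexes overlapped for both.

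**Figure D2:**
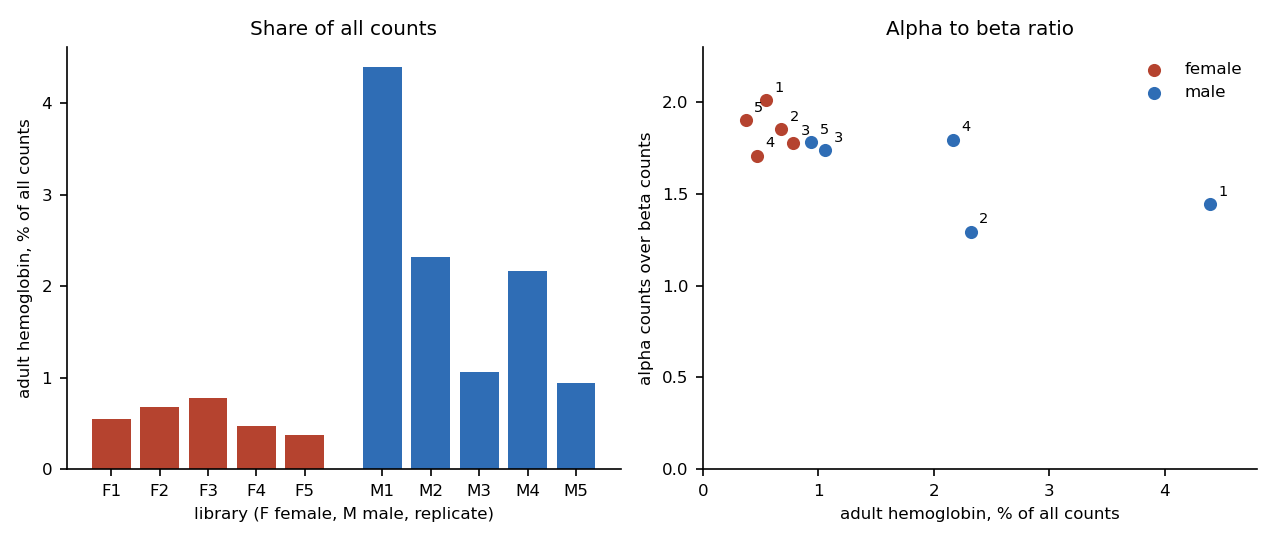
Left, the share of all counts from both alpha and both beta genes in each library, 1 bar per library. Right, the alpha to beta count ratio against that share, 1 point per library with its replicate number; male replicates 1 and 2 lie at 1.44 and 1.29, the other 8 libraries between 1.71 and 2.01.

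In proportion to hemoglobin, Alas2 overlapped between the sexes and Bpgm did not. Per 1000 adult hemoglobin counts, Alas2 had 6.58, 7.61, 7.26, 6.71 and 6.81 counts in females and 6.57, 4.10, 6.44, 7.74 and 7.38 in males. Male replicate 2 was low and the other 9 libraries lay close together. Bpgm had 5.57, 5.29, 4.87, 6.72 and 7.80 counts per 1000 in females and 3.30, 3.35, 3.91, 3.99 and 4.13 in males. All females stood above all males, and the female with least hemoglobin, replicate 5, had the highest value. Hbq1b had 0.361 ± 0.0515 counts per 1000 in females, against 0.202 ± 0.0726 in males (SD, 5 libraries per sex), with female replicate 3 below male replicate 5. Dividing by the hemoglobin counts carries their sex difference into each of these ratios. The hemoglobin shares of the sexes did not overlap, so a gene at a flat level would also stand higher in every female. The separation of Bpgm is therefore no result about Bpgm, and how many of all genes separate this way was not counted.

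**Figure D3:**
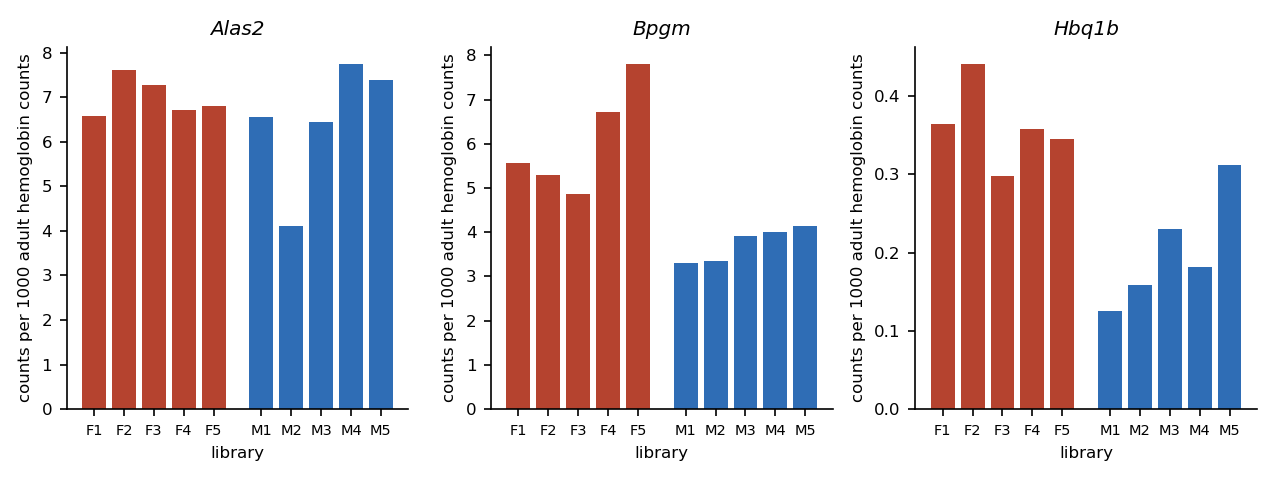
Counts of Alas2, Bpgm and Hbq1b per 1000 counts of the 4 adult hemoglobin genes, 1 bar per library, females left of males. Alas2 lies between 6.44 and 7.74 in every library but male replicate 2 (4.10). Bpgm is higher in each female than in each male, as a gene at a flat level would also be.

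From replicate to replicate within a sex the 7 genes ran together. Ordered by level, the females ran 3, 2, 1, 4 and 5 in 6 of the 7 genes, and in Hbq1b replicates 2 and 3 changed places. The males ran 1, 2, 4, 3 and 5 in 5 of the 7, with Alas2 and Hbq1b as the exceptions. After subtracting the mean of each sex from log2 CPM, Pearson's r with Hbb-bs over the 10 libraries was 0.997 for Hbb-bt and 0.986 for both alpha genes. It was 0.966 for Bpgm (Spearman's rho 0.964), 0.909 for Alas2 (rho 0.855) and 0.872 for Hbq1b (rho 0.903). These values are descriptions: the genes share libraries, depth and, within pairs, reads. Without the 2 libraries farthest from the median, male replicates 1 and 5, r was 0.918 for Bpgm, 0.810 for Alas2 and 0.871 for Hbq1b. Per log2 unit of Hbb-bs the others changed by 0.96 (Hbb-bt), 0.88 (Hba-a2), 0.83 (Hba-a1), 0.82 (Alas2), 0.70 (Bpgm) and 0.49 (Hbq1b) log2 units.

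Gata1, Klf1 and Tfrc, regulators and an early marker of the erythroid lineage, did not pass the test of a relation to Hbb-bs. Of the 13 relations computed, those of genes outside the hemoglobin list were tested with an exact two-sided permutation of libraries within each sex, adjusted over the 13. Gata1 and Klf1, transcription factors that drive globin genes, had r of -0.451 (rho -0.406, exact permutation adjusted p = 0.256 and 0.346) and -0.217 (rho -0.0424, adjusted p = 0.585 and 0.919). The transferrin receptor gene Tfrc had r of -0.236 (rho -0.309, exact permutation adjusted p = 0.611 and 0.494). Without male replicates 1 and 5, r was -0.121 for Gata1, 0.209 for Klf1 and -0.204 for Tfrc. The anion exchanger gene Slc4a1, a late erythroid membrane protein, had r of 0.308 (rho 0.285, exact permutation adjusted p = 0.540 and 0.536; r = 0.219 without the 2 libraries). Markers of other lineages had positive values. The B cell receptor gene Cd79a had r of 0.863 (rho 0.830, exact permutation adjusted p = 0.0288 and 0.0416), with 0.772 without the 2 libraries. The adjustment takes in the 6 hemoglobin list genes, and adjusted over the 7 genes outside the list alone, a choice made after seeing the data, the exact permutation p was 0.0722 for r and 0.0897 for rho. For r, Cd79a also missed the threshold without male replicate 1 (exact permutation adjusted p = 0.178) and without males 1 and 2 (0.325). The same held without male replicate 2, 4 or 5 alone. Of the alternative settings 8 missed the threshold and 7 kept it. The neutrophil calprotectin gene S100a8 had r of 0.823 (rho 0.697, exact permutation adjusted p = 0.0335 and 0.0879), with 0.515 without the 2 libraries, so it rests on them. Its exact permutation p over the 7 outside genes alone was 0.0722 for r and 0.142 for rho, so no gene outside the list passed on that adjustment. For r, S100a8 too missed the threshold in 8 alternative settings and kept it in 7.

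**Figure D4:**
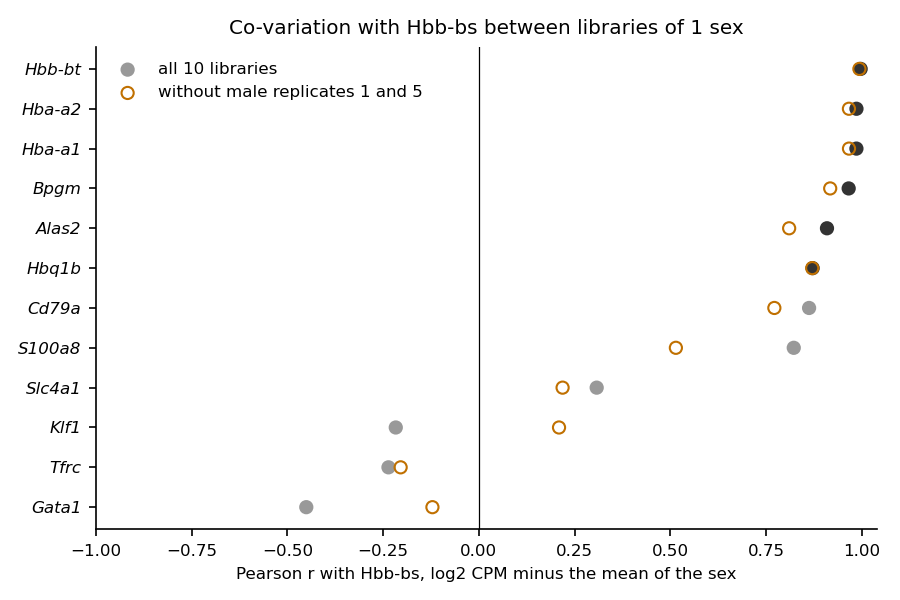
Pearson's r with Hbb-bs of log2 CPM after subtracting the mean of each sex. Filled points use all 10 libraries (dark for hemoglobin list genes, grey for others) and open points leave out male replicates 1 and 5; the 6 hemoglobin list genes lie at 0.810 or above in both.

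The genes most like Hbb-bs in sex-centred pattern were then ranked by r. Among 8399 genes with a mean of at least 10 CPM, outside the list and without predicted genes, the 10 highest r ran from 0.961 to 0.894. They included Tank, Mkrn1, Ska3, Rsad2, Tm2d1, Bnip3l, Mpp1, Uba3 and Fam213a. Of the genes searched, 19 had a higher r than Hbq1b and 6 a higher r than Alas2. The number was 0 for Bpgm, Hbb-bt and both alpha genes. The r of Hbq1b and Alas2 is thus not particular to the hemoglobin list. Bnip3l, the receptor for removal of mitochondria in reticulocytes, was at 134 ± 5.75 CPM in females, against 159 ± 27.1 CPM in males (SD, n = 5 per sex). Mpp1, a protein of the red cell membrane skeleton, was at 103 ± 6.55 and 116 ± 12.2 CPM, and the ubiquitin ligase gene Mkrn1 at 194 ± 6.04 and 229 ± 39.98 CPM, in females and males in turn. Of the 10, only Fam213a had every female below every male (35.1 ± 2.69 and 45.1 ± 7.57 CPM). Rsad2, an interferon-induced gene, was at 14.6 ± 3.79 CPM in females, against 31.6 ± 20.3 CPM in males. Tank, an adaptor of NF-kB signalling with the highest r, varied little, from 31.99 to 37.5 CPM in females and 32.4 to 40.4 CPM in males. These genes were picked as the highest of many, so their r carries no test.

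Embryonic and minor globin genes were close to absent. Hbq1a, the other theta-type gene, had 27 counts summed over all females and 58 summed over all males. Hba-x, the embryonic zeta chain gene, had 16 and 18 counts, Hbb-y 6 and 10, and Hbb-bh1 5 and 2, in females and males in turn. How far reads shared with the abundant adult genes add to such counts was not tested. None of these genes passed the filter on low counts.

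Genes that govern globin synthesis had a median fold change near 0, with single genes on either side. Of 19 regulators of globin transcription and translation, 0 were called by edgeR in either direction, and the median log2 fold change was 0.05, beside -0.01 over all genes tested. Klf1 was at 421 ± 61.8 CPM in females, against 407 ± 45.4 CPM in males, and Gata1 at 260 ± 17.7 CPM in females, against 262 ± 15.1 CPM in males (SD, n = 5 per sex). Eif2ak1, the kinase that matches globin synthesis to heme, was at 127 ± 7.90 CPM in females, against 126 ± 13.9 CPM in males. The smallest p in this list belonged to Cbfa2t3, a corepressor partner of GATA1 (log2 fold change 0.52, SE 0.14), Mbd2 (-0.22, SE 0.10) and Tal1 (0.21, SE 0.10), each with an edgeR adjusted p of 0.506. Cbfa2t3 was at 101 ± 15.2 CPM in females, against 70.2 ± 12.4 CPM in males (SD, n = 5 per sex), and every female lay above every male, as in 156 of the 14674 genes tested (1.06%). Of 20 early erythroid progenitor genes, 0 were called and 10 lay on either side of 0 (median 0.01). Their 3 smallest p were those of the carbonic anhydrase gene Car1 (-0.39, SE 0.14), Cited4 (0.22, SE 0.12) and Hspe1 (-0.34, SE 0.19).

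Genes of late erythroid cells and of heme synthesis had small negative medians. Of 26 genes of late erythroblasts and reticulocytes, outside the hemoglobin list, 19 had a negative value and 0 were called, with a median of -0.16. An unadjusted edgeR p under 0.05 was found in 10 of the 26, all lower in females, against 794 of the 14674 genes tested (5.41%). Ypel4 (log2 fold change -0.92, SE 0.26) and Tmcc2 (-0.97, SE 0.29) led by p. Slc4a1 was at 253 ± 88.3 CPM in females, against 418 ± 169 CPM in males. Summed over the list, late erythroid genes ranged from 5089 to 7233 CPM in females and from 6143 to 6999 CPM in males. The highest sum was in female replicate 1, whose hemoglobin share was 0.543%. Car2 alone gave 3045 CPM of that sum. It ranged from 2184 to 3045 CPM in females and from 2609 to 3157 CPM in males. These sums therefore weigh 1 abundant gene heavily and are no measure of late erythroid cells. Of 18 other heme synthesis and carrier genes 0 were called (median -0.12). The mitochondrial iron carrier gene Slc25a37 was at 66.8 ± 17.1 and 98.7 ± 34.8 CPM and Ppox at 61.9 ± 12.5 and 71.7 ± 7.36 CPM, in females and males in turn. Alas1, the form of the first enzyme used outside red cells, had a log2 fold change of 0.15 (SE 0.15). Of 19 gas exchange and redox enzyme genes 0 were called and 17 were negative (median -0.14), led by Car1, Slc4a1 (-0.73, SE 0.31) and Txn1 (-0.40, SE 0.18). Of 13 genes that clear free hemoglobin, heme and iron 0 were called (median -0.19, but 0.04 without male replicates 1 and 2), with Ftl1 (-0.43, SE 0.15), Hp (-0.80, SE 0.41) and Fth1 (-0.24, SE 0.14) first by p.

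Markers of other mature cells were measured in the same libraries. All 15 mature neutrophil genes had a negative log2 fold change (median -2.45, 0 called by edgeR), led by Ly6g (-3.05, SE 0.78), Ifitm6 (-2.50, SE 0.72) and S100a9 (-2.68, SE 0.78). The median was -0.95 without male replicates 1 and 2. Their summed level ranged from 296 to 1100 CPM in females and from 240 to 9724 CPM in males, and no marker was at 0 over all libraries. Male replicate 1 had the highest sum, as it had the highest hemoglobin share. Male replicate 5 had the lowest neutrophil sum of all 10 libraries, at 240 CPM, with a hemoglobin share of 0.939%, above every female. Of 9 tested B lineage genes all were negative (median -1.43, 0 called), led by Pax5 (-2.86, SE 0.57), Cd79a (-1.67, SE 0.39) and Vpreb1 (-1.73, SE 0.50). Over the alternative fits this median ran from -1.64 to -0.95. The summed B lineage level ranged from 13.4 to 18.4 CPM in females and from 17.7 to 50.01 CPM in males. It was highest in male replicates 1 and 2, at 50.01 and 30.5 CPM. What part these cells have in the hemoglobin values was not tested. Of 15 megakaryocyte and platelet genes all were positive (median 0.45, 0 called), led by Gp5 (0.45, SE 0.08), Itga2b (0.48, SE 0.11) and Thbs1 (1.03, SE 0.24). Of 13 genes of marrow macrophages, which nurse erythroblasts, 0 were called (median -0.23, but 0.48 without male replicates 1 and 2), with Dnase2a (-0.23, SE 0.09), Cd163 (0.25, SE 0.15) and Adgre1 (-0.65, SE 0.46) first by p. Of 14 stem and progenitor genes 0 were called (median -0.01), with Slamf1 (0.58, SE 0.24), Ly6a (-0.60, SE 0.30) and Flt3 (-0.31, SE 0.15) first. At an unadjusted edgeR p under 0.05, all 15 neutrophil and 6 of 9 B lineage genes were lower in females, against 794 of the 14674 genes tested (5.41%). At that level 10 of 15 megakaryocyte genes were higher, against 552 of all genes (3.76%). The counts were 3 lower among gas exchange genes, 1 lower each among heme synthesis, heme clearance, early erythroid and macrophage genes, 1 higher among stem and progenitor genes, and 1 in each direction among globin regulators. Single genes in lists of 13 to 20 genes lie near the shares over all genes, so nothing is read from them. Among the list genes that edgeR tested DESeq2 called 6, Gp5, Itga2b, Itgb3 and Thbs1 higher and Pax5 and Cd79a lower in females, against 39 higher (0.219%) and 21 lower (0.118%) of all 17827 genes.

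**Figure D5:**
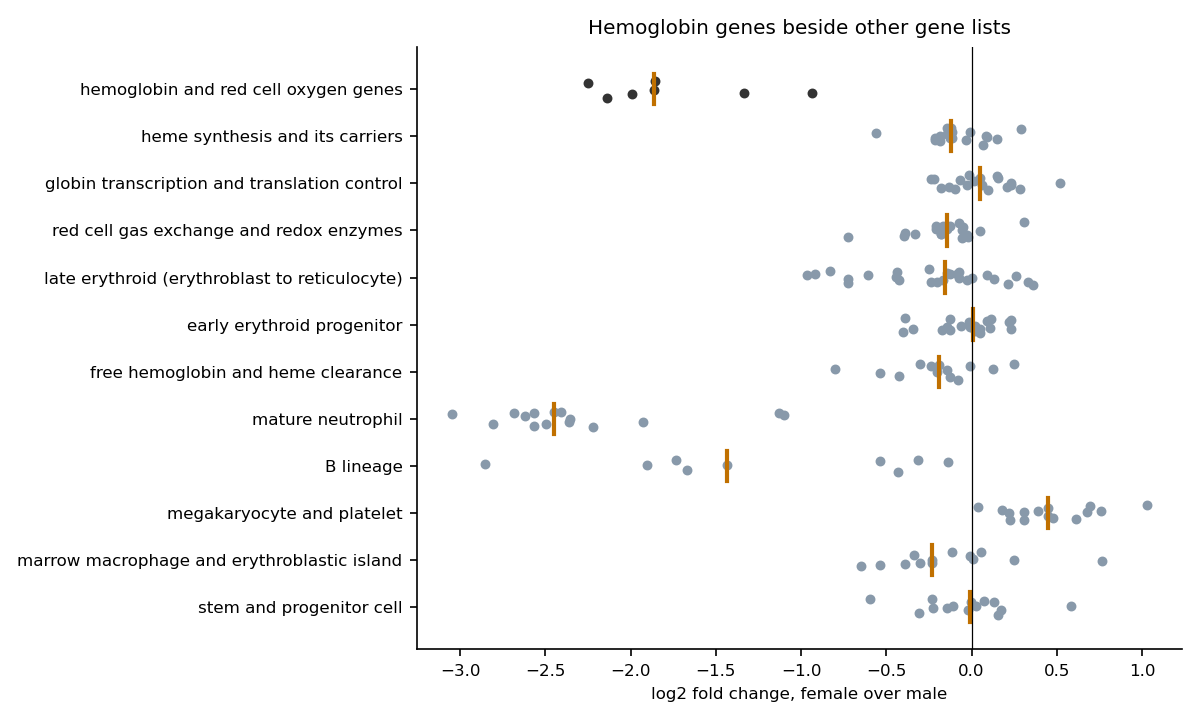
Log2 fold change, female over male, of each tested gene (points) by list, with the median as an orange bar. The 7 hemoglobin list genes lie between -2.25 and -0.93, regulators of globin genes and early erythroid genes centre near 0, and mature neutrophil genes have a median of -2.45.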

How the data were processed

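RNA-seq libraries of 5 female and 5 male replicates were analysed. The authors deposited raw read counts per Ensembl gene; STAR, featureCounts and DESeq (no versions given) are named in the submitters' processing notes, beside GRCm38.p6 and mm10. Their deposited normalized values (signal) equalled the counts divided by 1 size factor per library (0.852 to 1.13) and were not used further. Symbols, positions and lengths come from GENCODE vM21 (GRCm38), which matched 25116 of 25178 identifiers; lengths are those of the longest transcript with a RefSeq match. Counts were filtered by filterByExpr, scaled by TMM and tested with the quasi-likelihood test of edgeR 4.0.16 (R 4.3.3), with sex as the only term and Benjamini-Hochberg adjustment over 14674 genes. DESeq2 1.42.0 was an alternative. The SE is the log2 fold change divided by the square root of F. Log2 CPM used a prior count of 2. In simulated counts for this comparison (14510 genes), the test recovered 78% of genes given a log2 change of 1 and 100% of those given 2. Each simulated gene had the same dispersion in both sexes. The adult chain genes, Alas2 and Bpgm spread more among males and edgeR called none of them, so these shares need not hold for them. Genes and lists were chosen with earlier results of these data known. The genes named are the hemoglobin list, the 3 of smallest p and any called gene per list, the 13 of the correlation family and the 10 most like Hbb-bs; some genes these rules name are not reported here. Eif2ak1, Alas1 and Itgb3 were added after their values were seen, as were Xist and Kit. PCR copies were not told apart, so low counts carry at least counting error.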

Additional observations from a re-analysis of the deposited data

Results flagged for a closer look

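The search took in 28 groups of 5 libraries, covering the CPM of the 7 genes and the shares and ratios given. In 0 groups did the gap of the highest or lowest library, over the range, exceed the 95% critical value of Dixon's test for 5 samples. That test looks at a single extreme library, so libraries that stand apart as a pair can be missed. Male replicates 1 and 2 lay apart as a pair in the alpha to beta ratio, at 1.44 and 1.29.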

How the results depend on the processing

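The 7 genes were listed as lower in females in these same counts, so an unchanged sign is a description and no support. Each was lower in females in all 17 alternative fits. Of these 119 fold changes 0 changed sign and 2 moved by more than the SD between libraries, both without male replicates 1 and 2 (Hbb-bs to -1.40 and Hbb-bt to -1.28). The edgeR fits called 0 of the 7 in every alternative and DESeq2 called 6. The 8 genes called over all genes became 60 with DESeq2, and 6 to 10 when 1 library was left out. The replicate block gave 5 calls; same-numbered libraries did not deviate together (correlations -0.302 to -0.0071), so the numbers pair nothing. Calls in the fixed lists were 0, then 6 with DESeq2 and 1 (Pax5) without male replicate 3. The female alpha to beta ratio was 1.73 from Hba-a1 over Hbb-bs alone. Leaving out 1 library gave mean shares of 0.514% to 0.617% in females and 1.62% to 2.48% in males, mean ratios of 1.81 to 1.88 and 1.56 to 1.69, and 6 to 9 genes with an adjusted p under 0.05 for r with Hbb-bs, against 8. Of the 8, 6 are hemoglobin list genes, whose r is a description, and 2 (Cd79a and S100a8) lie outside the list. The outside genes were 0 to 3 when 1 library was left out and 0 when adjusted over the outside genes alone, an alternative added after seeing the data. Leaving out 1 library gave an r of -0.000561 (without male 1) to 0.633 for Slc4a1 and -0.384 to 0.163 (without male 1) for Klf1; without males 1 and 2 that of Klf1 was 0.0459 and of Tfrc 0.260. The causes were not tested.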
